A study of Mus musculus with 5 samples.

Results

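Mt1 and Mt2, the metallothionein genes found in most mouse tissues, were described in single-cell RNA sequencing of mouse lung. They are 2 of the 42454 deposited features and were matched by their exact symbols, so the mitochondrial features, whose names start with mt-, were not taken with them. Among the features are 4 metallothionein genes; the other two, Mt3 and Mt4, had between 0 and 8 counts and 0 counts per library. Mt1 and Mt2 were chosen by their measured levels in these libraries and cell classes, so those levels are given as a description and no test was made on them.

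Metallothioneins are small cysteine-rich proteins that bind zinc and copper and can take up oxidants through their thiol groups. Their transcription rises when free zinc releases the factor Mtf1 onto metal response elements, and it is also driven by glucocorticoids and by oxidative stress through Nrf2. In the lung they are known from epithelium and from macrophages exposed to metals or oxidants.

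C57BL/6J mice less than 12 h old were kept with their dams in room air or in hyperoxia (>95% O2) for 3 days, with the dams exchanged between litters, and then in room air. Lung cells were taken at postnatal day (pnd) 7 or 60. There were 5 libraries, with 1 for each of air pnd7, hyperoxia pnd7, air pnd60, hyperoxia pnd60 and hyperoxia pnd7 cells sorted for C12FDG, a fluorescent substrate of β-galactosidase that is used to mark senescent cells. For the sorted library, cells of 3 lungs were pooled; how many animals each of the other libraries came from was not given in the sources used here. All intervals below are 95% intervals of counting error only, because no condition had a second library to show the spread between mice. According to the paper, the unsorted data come from an earlier published dataset of the same group, while the sorted library was made for that paper. The sort, the pool, the study and the separate library cannot be told apart in any comparison of sorted with unsorted cells.

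After cells with more than 700 and fewer than 8000 genes and under 5% mitochondrial counts were kept, the libraries held between 493 and 4756 cells and between 7880365 and 16648251 unique molecular identifiers (UMIs). The median depth was 15529 UMIs per cell in the sorted library and between 2168 and 7119.5 in the unsorted ones. Pairs of libraries shared between 0 and 7 cell barcodes. Of the 493 sorted cells, 412 fell in the class named alveolar macrophage-like and 49 in the class named C1q macrophage-like, so the sorted library is mostly macrophages and a comparison over all its cells is also a comparison of cell types.

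In mm10 coordinates of the GENCODE vM21 annotation, Mt2 lies at chr8:94172664-94173568 and Mt1 at chr8:94179082-94180327, both on the plus strand and with 3 exons, with 5513 bases between them. Each encodes 61 amino acids. The coding sequences of the main transcripts are identical at 79.6% of 186 aligned bases. The 3′ untranslated parts, 134 bases in Mt1 and 141 in Mt2, are identical at 57.5% of 146, with no shared run of 21 bases. Which of these parts the reads of this 3′ assay fell in was not examined. How reads shared by near-identical sequence were counted was not examined. The 250 bases before each RefSeq start (GRCm38.p6) are shown because the levels of both genes differed together between these libraries. Capitals mark matches to the metal response forms TGCACNC or TGCGCNC on either strand.
Mt1, chr8:94178839-94179088, plus strand: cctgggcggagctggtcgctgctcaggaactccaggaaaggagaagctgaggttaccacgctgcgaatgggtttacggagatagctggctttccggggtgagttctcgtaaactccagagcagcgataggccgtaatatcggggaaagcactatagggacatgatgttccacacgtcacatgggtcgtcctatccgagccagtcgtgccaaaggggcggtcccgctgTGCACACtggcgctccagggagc
Mt2, chr8:94172368-94172617, plus strand: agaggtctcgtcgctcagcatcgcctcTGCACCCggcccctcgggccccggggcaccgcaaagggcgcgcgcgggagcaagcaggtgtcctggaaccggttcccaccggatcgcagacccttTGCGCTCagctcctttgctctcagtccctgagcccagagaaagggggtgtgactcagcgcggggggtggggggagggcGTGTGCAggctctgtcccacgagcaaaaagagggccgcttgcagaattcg

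The Mt2 window held 3 such matches and the Mt1 window 1. Of 32851 promoter windows of this length, 21.4% held at least 1 match and 1.26% at least 3. Further matches stood just inside the annotated transcripts, since the first 180 bases of the main GENCODE transcripts held 4 in Mt1 and 3 in Mt2. As many as in Mt1 were found in 0.0801% of 21218 protein-coding transcripts and as many as in Mt2 in 0.603%. The Mt2 window also held 1 match to TGACNNNGC, a form of the antioxidant response element found in 10.2% of windows. Neither window held the full palindromic form of the glucocorticoid response element. The first 180 bases of the transcripts were searched for the metal response forms only, so the other forms were not looked for there. The stretch between the Mt2 window and its GENCODE start was not searched. All matches given here describe letters in the sequences, and no binding was measured.

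Both genes were far more abundant in the sorted library than in any other. Mt1 was at 319 CPM, that is counts scaled to the total of the library or class, in air pnd7 (interval 310 to 328), 345 in hyperoxia pnd7 (335 to 355), 13907 in the sorted library (13825 to 13990), 227 in air pnd60 (220 to 235) and 188 in hyperoxia pnd60 (181 to 195). Mt2 was lower in every library, at 49.9, 52.6, 2256, 47.7 and 39.3 CPM in the same order. The 4 unsorted libraries thus lay within a factor of 2 of each other for both genes, and the sorted one stood apart. In the sorted library Mt1 was the gene with the 4th highest count and the 2 genes together made up 1.62% of all counts, against 0.0227% to 0.0397% in the unsorted libraries.

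**Figure D1:**
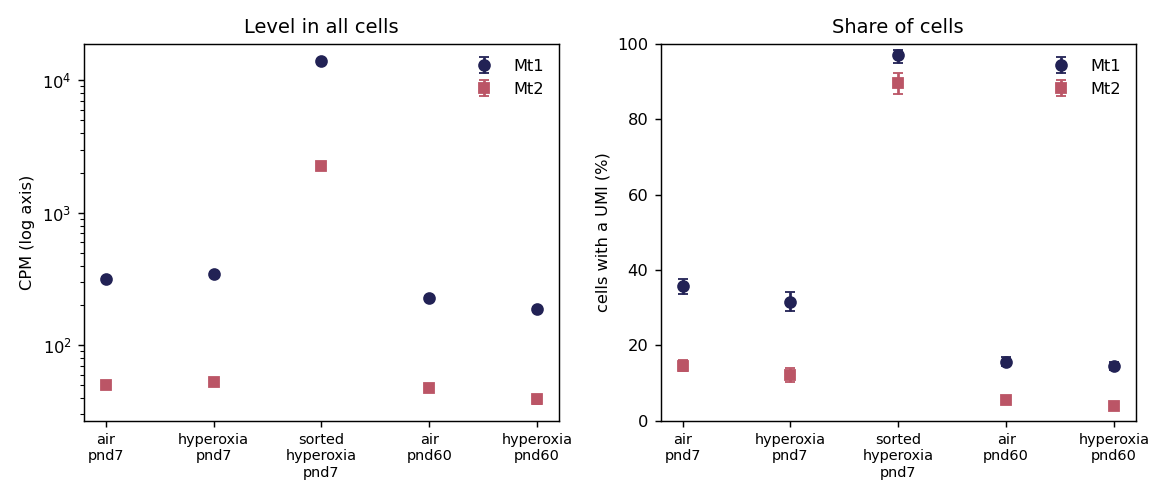
Level of Mt1 and Mt2 in all kept cells of each library in CPM on a log axis (left) and share of cells with at least 1 UMI in percent (right), with 95% counting intervals that are often smaller than the points. Mt1 lies at 13907 CPM in the sorted library and between 188 and 345 CPM in the others.

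A UMI of Mt1 was found in 97.0% of sorted cells (95.0 to 98.3), but in 35.7% of cells in air pnd7, 31.6% in hyperoxia pnd7, 15.7% in air pnd60 and 14.6% in hyperoxia pnd60. Depth differed between libraries, and after each cell was thinned to 1000 UMIs the shares were 90.7%, 18.9%, 13.6%, 6.58% and 5.94% in the same order. The separation of the sorted library therefore remained at equal depth. In the unsorted libraries the counts were uneven, with 25.6% to 45.4% of the summed Mt1 and Mt2 counts in the highest 1% of cells, against 6.06% in the sorted library.

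Against unsorted hyperoxia pnd7, the summed counts of Mt1 and Mt2 were 40.7-fold higher in the sorted library (log2 ratio 5.35, interval 5.31 to 5.39). Of 11340 genes with at least 100 counts in both libraries together, 14 had a higher ratio than the sum, Mt2 itself among them. The median log2 ratio was -0.55, and 8.17% of these genes were more than 2-fold higher, as were 2 of the 2 genes described here. Against unsorted air pnd7 the sum was 43.8-fold higher (5.45, 5.42 to 5.49), and 2 of 2 were past 2-fold higher against 7.81% of all genes. Both comparisons use the same sorted library.

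Hyperoxia against air gave a log2 ratio of 0.11 at pnd7 (0.05 to 0.16) and -0.27 at pnd60 (-0.34 to -0.21). At pnd7 the sign depended on the weight of the cells, since the mean of CPM per cell gave -0.48 and the sums without the highest 1% of cells -0.02. Neither gene passed 2-fold in these comparisons, where 0.985% of all genes did at pnd7 and 0.518% at pnd60. Between ages the sum was lower at pnd60 than at pnd7, by a log2 ratio of -0.42 in air (-0.48 to -0.37) and -0.81 after hyperoxia (-0.87 to -0.75), and again 0 of the 2 genes passed 2-fold, against 24.4% and 28.6% of all genes. The size between ages depended on the processing, with -1.54 in air and -1.42 after hyperoxia as the mean of CPM per cell, -1.42 and -1.30 thinned to 1000 UMIs, and 0.13 and -0.06 with all barcodes kept. All these ratios over all cells also carry the mix of cell classes, which differed between the unsorted libraries. The airway cluster held 118 cells in air pnd7 and 6 in hyperoxia pnd7. B cell-like cells numbered 120 in air pnd7 and 1238 in air pnd60. The part of this mix in the ratios was not tested.

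Cells were classed by clustering without Mt1 to Mt4 and by markers of each class. Over the classes with at least 20 cells, the highest levels at pnd7 were in airway epithelium, macrophages and type II cells, and at pnd60 in the airway cluster and macrophages. The summed level in air pnd7 was 3086 CPM in the airway cluster (118 cells), 840 in alveolar macrophage-like cells (106), 828 in type II-like cells (177), 591 in type I-like cells (221) and 542 in C1q macrophage-like cells (22). The counting intervals of alveolar macrophage-like and type II-like cells overlapped, as did those of type I-like and C1q macrophage-like cells. At the other end, B cell-like, T cell-like, general capillary endothelial-like, alveolar fibroblast-like and myofibroblast and smooth muscle-like cells were each between 3.15 and 14.9 CPM.

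**Figure D2:**
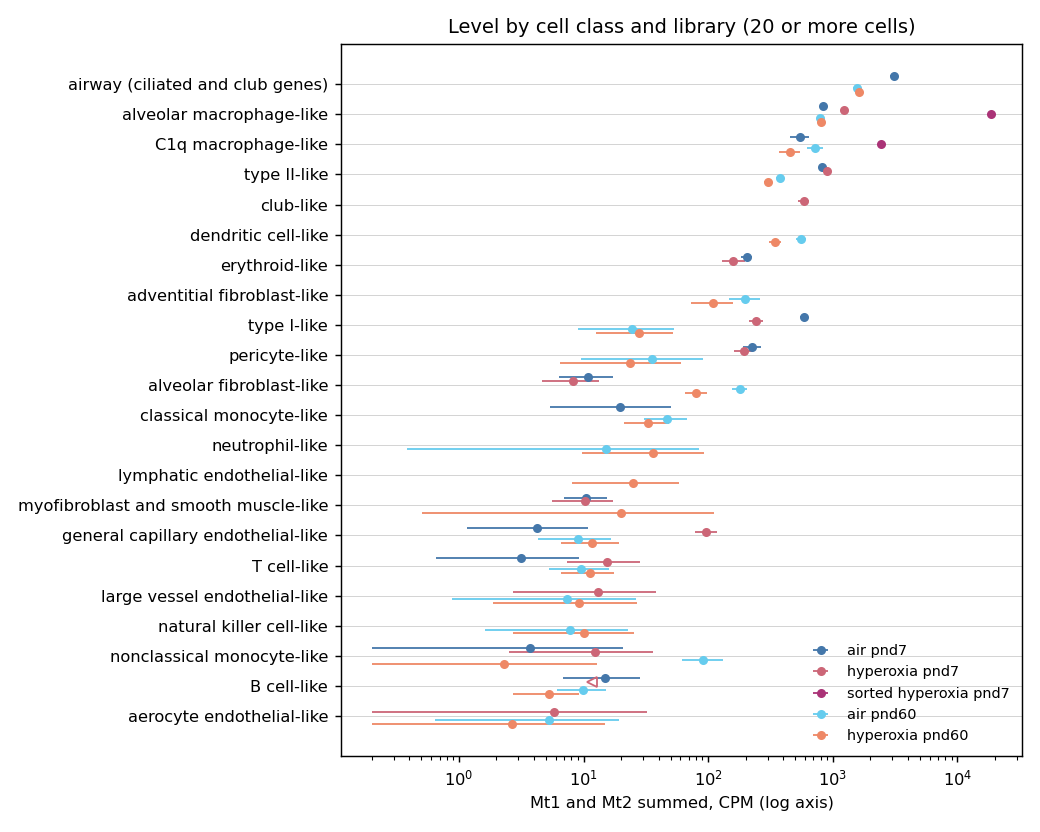
Summed level of Mt1 and Mt2 in CPM on a log axis for each cell class with at least 20 cells in a library, 1 colour per library, with 95% counting intervals cut at 0.2 CPM; an open triangle marks the upper limit of a class with 0 counts. Sorted alveolar macrophage-like cells lie at 18729 CPM and sorted C1q macrophage-like cells at 2429 CPM, to the right of the same classes in the unsorted libraries.

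At pnd60 the order differed in part, and the class named type I-like was at rank 11 of 18 in air. In air pnd60 the airway cluster was at 1558 CPM (42 cells), alveolar macrophage-like cells at 797 (181), C1q macrophage-like cells at 722 (65), dendritic cell-like cells at 559 (116) and type II-like cells at 375 (447). In hyperoxia pnd60 the same classes were at 1630 (38), 801 (191), 452 (56), 345 (131) and 300 CPM (529). In hyperoxia pnd7, alveolar macrophage-like cells led with 1234 CPM (63) before type II-like cells with 897 (145) and club-like cells, the secretory cells of the airway, with 584 (41), of which 14 were club-like by their own markers and 12 with Seurat integration. The airway cluster had only 6 cells there.

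The share of cells with a UMI followed the level only in part, and these shares were not thinned to equal depth. In air pnd60, 22 of 65 C1q macrophage-like cells had no UMI at 722 CPM, against 11 of 181 alveolar macrophage-like cells at 797. In air pnd7, 63 of 221 type I-like cells had none at 591 CPM, against 3 of 22 C1q macrophage-like cells at 542. Among alveolar macrophage-like cells 92.1% to 93.9% had a UMI of either gene in the 4 unsorted libraries, and among type II-like cells 91.0% to 93.2% at pnd7 and 57.66% to 59.96% at pnd60. B cell-like cells, which were taken as a class that should show little, had a share of 5% in air pnd7 at a median depth of 3783.5 UMIs, 1.45% in air pnd60 at 1593 and 0.949% in hyperoxia pnd60 at 1685. In hyperoxia pnd7 0 of 65 B cell-like cells had one, where the upper limit of the interval for a count of 0 is 11.7 CPM. Alveolar fibroblast-like cells at pnd7, at 6.43% and 6.87% and a depth of 9262 and 11831 UMIs, were close to this background and their values are not read as expression. Erythroid-like cells, with 34.2% in air pnd7 and 18.9% in hyperoxia pnd7, were above it.

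The airway cluster was named ciliated by its leading genes, Foxj1, Tmem212 and Ccdc153 among them, but it also held club cell genes, with 64197 CPM of the club markers in air pnd7. Its cells were therefore split by their own markers after the data were seen. The 29 cells with ciliated markers in air pnd7 had 6336 CPM of Mt1 and Mt2 (5884 to 6813), the 36 in air pnd60 2402 (2233 to 2581) and the 34 in hyperoxia pnd60 1978 (1838 to 2126). The 6 in hyperoxia pnd7 had 9454 CPM, of which 52.3% came from 1 cell. The 77 cells with club markers in air pnd7 had 2020 CPM (1819 to 2237), so the ciliated cells of the cluster, which beat mucus along the airway, held the higher level. Ciliated cells of air pnd7 had the highest level of any group of at least 20 unsorted cells described here.

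In alveolar macrophages, which clear surfactant and particles from the airspace, most sorted cells lay above the highest unsorted cell of either pnd7 library. Mt1 was at 799 CPM in air pnd7, 1133 in hyperoxia pnd7, 16118 in the sorted library, 696 in air pnd60 and 712 in hyperoxia pnd60. Mt2 was at 41.1, 101.5, 2611, 100.9 and 89.0 CPM in the same order. The sorted cells differed from unsorted hyperoxia cells by a log2 ratio of 3.83 for Mt1 (3.74 to 3.92) and 4.68 for Mt2 (4.388 to 4.998), a 14.2-fold and a 25.7-fold higher level. Of 6638 genes with enough counts in this class 3.98% were more than 2-fold higher, 13.6% more than 2-fold lower, and the median log2 ratio was -0.28; 2 of 2 metallothioneins were past 2-fold higher, and 4 genes had a higher ratio than Mt2. Against air pnd7 both were again past 2-fold higher, where 3.82% of genes were, with a log2 ratio of 4.34 for Mt1 and 5.99 for Mt2.

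Over single cells, the summed level in sorted alveolar macrophage-like cells ranged from 0 to 50300 CPM with a median of 17532, and 4 of the 412 cells had no UMI of either gene. In the unsorted libraries the medians were 673 (air pnd7), 724 (hyperoxia pnd7), 424 (air pnd60) and 423 CPM (hyperoxia pnd60), and the highest cells were at 6732, 7414, 12036 and 11874. None of the unsorted cells of this class reached the median of the sorted cells. The groups overlapped at the low end, since 67 sorted cells lay under the highest hyperoxia pnd7 cell and 8 under the median of that library. Levels above 5000 CPM were seen in 361 sorted cells and in 2 to 6 cells of each unsorted library.

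**Figure D3:**
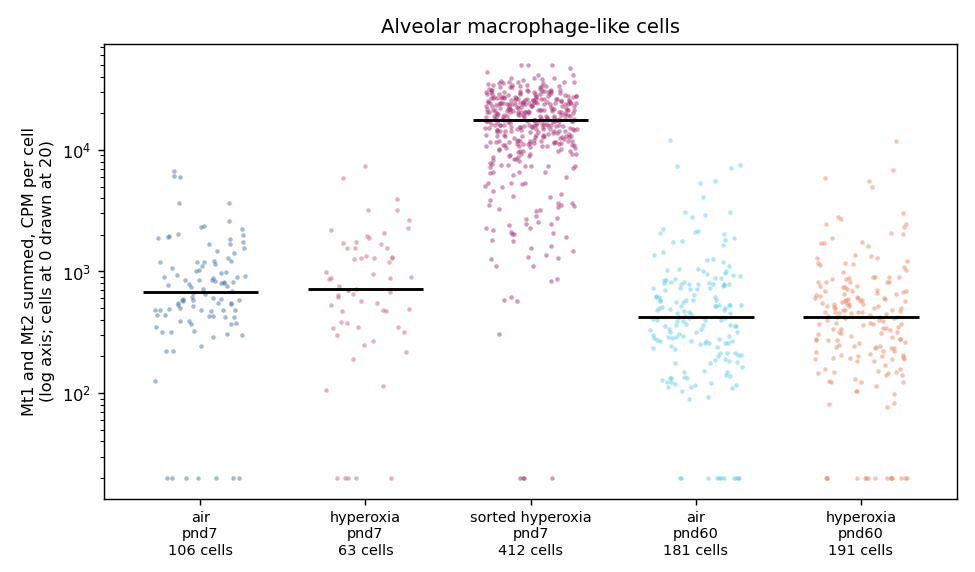
Summed CPM of Mt1 and Mt2 in each alveolar macrophage-like cell on a log axis, with cells at 0 drawn at 20 and a bar at the median. The sorted cells have a median of 17532 CPM and the 4 unsorted groups medians between 423 and 724, with an overlapping tail.

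All 10 alveolar macrophage markers had counts in both groups, and their summed level was lower in the sorted cells, at 4104 against 6531 CPM. Of single markers, Chil3 was at 652 CPM against 925 in unsorted hyperoxia, Ear2 at 728 against 1500, Marco at 215 against 368 and Siglecf at 44.0 against 103, while Krt79 was at 27.97 against 21.2. Markers of type II cells summed to 467 against 307 CPM, of ciliated cells to 37.0 against 62.5 and of neutrophils to 101 against 177, and their part in the result was not tested. Of the 412 sorted cells of the class, 373 kept it by their own markers and 244 with Seurat integration. Most sorted cells of the class (369 of 412) were in 1 cluster that held only 5 unsorted cells and was led by the stress genes Hmox1, Slc7a11, Mt1 and Mt2, with 7 of 10 macrophage markers raised. That cluster may be the library rather than a cell type. The other 43 were in a cluster of dividing macrophages, led by Pclaf, Top2a and Birc5, which all 5 libraries shared. Within that cluster the summed level was 23081 CPM in the 43 sorted cells (22798 to 23368), 871 in 15 hyperoxia pnd7 cells (758 to 995) and 668 in 13 air pnd7 cells (559 to 792). The lowest sorted cell there was at 1783 CPM and the highest hyperoxia pnd7 cell at 2641. The difference was thus at least as large within the shared cluster, with a log2 ratio of 4.73 (4.53 to 4.93).

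Sorted cells of other classes also had higher levels than unsorted cells in part. The 49 sorted C1q macrophage-like cells, resident macrophages of the interstitium and vessels, were at 2429 CPM (2319 to 2542), against 542 in 22 air pnd7 cells (455 to 641) and 422 in 19 hyperoxia pnd7 cells (344 to 513), all in 1 shared cluster. The log2 ratio was 2.16 against air (1.91 to 2.43) and 2.53 against hyperoxia (2.24 to 2.83), although hyperoxia had 19 cells, under the minimum of 20 used elsewhere. The medians over single cells were 1313 (sorted), 358 (air) and 363 CPM (hyperoxia), and the highest sorted cell was at 20286. In the same order, type II markers summed to 8474, 8883 and 297 CPM in these cells, and alveolar macrophage markers to 425, 112 and 8.36. The part of these markers in the difference was not tested. The 8 sorted type II-like cells were at 2830 CPM (2575 to 3103), against 897 in unsorted hyperoxia, with 41.7% of the counts from 1 cell. Of the 9 sorted type I-like cells 4 had no UMI and 1 held 87.2% of the counts. The 6 sorted nonclassical monocyte-like cells had 2 UMIs of Mt1 and 0 of Mt2, a level of 75.9 CPM (9.19 to 274) at a median depth of 5236.5, where 3 counts would be 114 CPM. In unsorted hyperoxia pnd7 this class was at 12.3 CPM with 3 counts.

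The share of Mt2 in the summed counts was lower in unsorted alveolar macrophage-like cells than in type II-like cells at pnd7, while in the sorted cells it was within the interval of type II-like cells of hyperoxia pnd7 (12.1 to 14.96). Each UMI stands for 1 captured molecule whatever the transcript length. Whether the 2 genes are captured and assigned equally was not examined, so this is a share of counts only. Mt2 made up 4.89% of the summed counts in alveolar macrophage-like cells of air pnd7 (3.63 to 6.44), 8.23% in hyperoxia pnd7 (6.68 to 10.0), 13.9% in the sorted cells (13.7 to 14.1), 12.7% in air pnd60 (10.8 to 14.7) and 11.1% in hyperoxia pnd60 (9.43 to 12.98). In type II-like cells the range over the unsorted libraries was 13.5% to 18.3%, and in the airway cluster 15.7% to 24.5% over libraries with at least 20 cells. Thinned to 1000 UMIs, Mt1 and Mt2 correlated across the 412 sorted alveolar macrophage-like cells with a Pearson r of 0.62. In unsorted cells of this class r was 0.04 in air pnd7, 0.28 in hyperoxia pnd7, 0.58 in air pnd60 and 0.70 in hyperoxia pnd60. By ranks (Spearman) the values were -0.01, 0.35, 0.35 and 0.18 in the same order, and 0.65 in the sorted cells. Both pnd60 values were thus lower by ranks, while the sorted value was not. Across the 145 type II-like cells of hyperoxia pnd7 the Pearson r was 0.22. Mean counts per thinned cell were 15.5 of Mt1 and 2.63 of Mt2 in the sorted cells, against 0.62 and 0.07 in the same class of hyperoxia pnd60. The r values thus rest on unlike counts. These are cells of 1 library each and no p-value is given. Across 68 units of a class and a library, log2(CPM + 10) of Mt1 and Mt2 had an r of 0.94.

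Hyperoxia against air at pnd7 could be compared in 11 classes, and the sum was higher past counting error in 4 and lower in 3. Which classes these were depended on the classing. With Seurat integration 3 of 14 classes were higher, alveolar macrophage-like, general capillary endothelial-like and B cell-like, the last of which was lower in the clusters used here, and 3 were lower. By own markers 6 of 14 were higher and 5 lower. In alveolar macrophage-like cells the sum was 1234 against 840 CPM, a log2 ratio of 0.56 (0.43 to 0.68). Mt1 was at 0.50 and Mt2 at 1.31 (0.79 to 1.84, 91 against 48 counts). Thus 1 of the 2 genes, Mt2, passed 2-fold, with an interval that reached below 2-fold, against 0.755% of 3709 genes. The medians over single cells were 724 and 673 CPM, and 1 cell held 15.3% of the hyperoxia counts. In type II-like cells, which make surfactant, the log2 ratio was 0.12 (0.03 to 0.20), and the class was not among those higher past counting error under either of these other classings. The 134 general capillary endothelial-like cells had a log2 ratio of 4.50, but 98% of their 100 counts came from 1 cell, and T cell-like cells had 10 counts against 3, with 70.0% from 1 cell. The class of type I cells, the flat cells of gas exchange, was lower in hyperoxia, at 243 against 591 CPM (log2 ratio -1.28, -1.51 to -1.06). Most of these type I-like cells came from different clusters in the 2 libraries, with median depths of 8710 and 2077 UMIs, and the part of that in the difference was not tested. The class name of the air pnd7 cells also did not hold under the other classings, since 104 of the 221 were type I-like by their own markers and 32 with Seurat integration, against 58 and 37 of the 63 hyperoxia cells. At clustering resolution 1 the class held 22 air pnd7 cells. Erythroid-like cells were also lower (log2 ratio -0.35, -0.71 to -0.02), with 57.3% of their hyperoxia counts from 1 cell, as were B cell-like cells with 0 counts against 9. Without the highest 1% of cells of each class, 2 classes were higher, alveolar macrophage-like and type II-like cells, and 2 were lower.

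At pnd60 hyperoxia was higher in 0 of 18 classes and lower in 6. Alveolar macrophage-like cells had nearly the same level, 801 and 797 CPM (log2 ratio 0.01, -0.11 to 0.12), and neither gene passed 2-fold, against 0.372% of genes. The airway cluster, at 1630 and 1558 CPM, had a log2 ratio of 0.06 (-0.08 to 0.20). By their own markers, its ciliated cells were at 1978 against 2402 CPM, with counting intervals that did not overlap. The single ciliated cells did overlap, at 187 to 6162 CPM in hyperoxia (median 1686) and 130 to 7265 in air (median 1817). No direction is read from them. The club cells of the cluster were at 727 (4 cells, 595 to 881) against 353 (6 cells, 279 to 441), under the minimum of 20 cells used elsewhere. Single club cells overlapped, at 317 to 1354 CPM in hyperoxia and 45.9 to 961 in air, so no direction is read from them. Lower after hyperoxia were type II-like (log2 ratio -0.32, -0.45 to -0.20), C1q macrophage-like (-0.68, -1.04 to -0.31), dendritic cell-like (-0.69, -0.92 to -0.47), alveolar fibroblast-like (-1.15, -1.53 to -0.79), adventitial fibroblast-like (-0.86, -1.57 to -0.17) and nonclassical monocyte-like cells (1 count against 29, with 65.5% of the 29 from 1 cell). These 6 ratios compare 1 library with 1 other, and variation between mice was not measured.

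**Figure D4:**
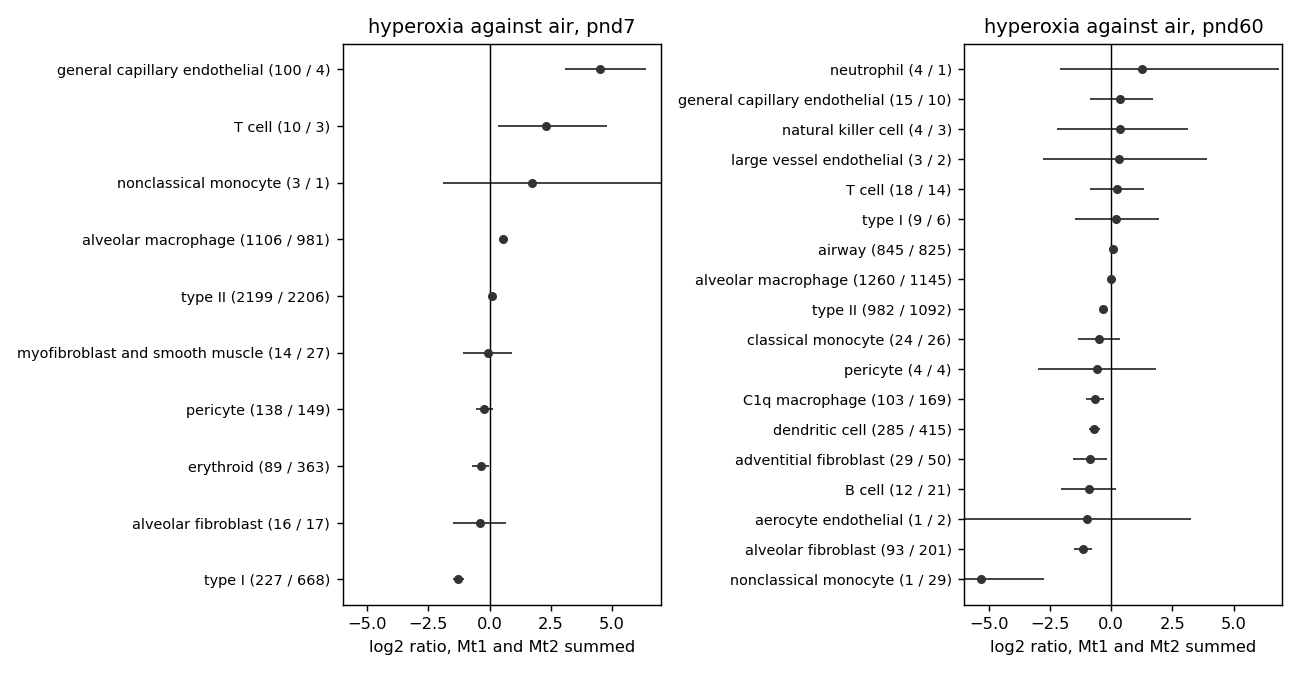
Log2 ratio of the summed CPM of Mt1 and Mt2 in hyperoxia over air at pnd7 (left) and pnd60 (right) for each class with at least 20 cells in both libraries and counts in both, with 95% counting intervals cut at the axis limits and the counts in hyperoxia and air in brackets. At pnd60 no interval lies above 0.

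Between ages the classes did not move together. In air, type II-like cells were at 828 CPM at pnd7 and 375 at pnd60 (log2 ratio -1.14, -1.25 to -1.04) and pericyte-like cells at 225 and 35.3 (-2.67, -4.56 to -1.28), although 67.1% of the pericyte counts at pnd7 came from 1 cell. The class named type I-like was at 591 and 24.4 CPM, but no ratio is given because most of its air pnd7 cells lost that name under integration. The airway cluster was at 3086 and 1558 CPM, but no ratio is given because its make-up by own markers differed between the ages. In air pnd7, 29 of its 118 cells were ciliated and 77 club, and in air pnd60 36 and 6 of 42. Its ciliated cells were at 6336 CPM at pnd7 and 2402 at pnd60. Its club cells were at 2020 and 353 CPM, the latter from only 6 cells. Alveolar macrophage-like cells were at 840 and 797 CPM (-0.08, -0.20 to 0.05), yet Mt2 alone was higher at pnd60, at 100.9 against 41.1 CPM (1.30, 0.82 to 1.80). Alveolar fibroblast-like cells, fibroblasts of the alveolar wall, were at 180 CPM in air pnd60, where 12.2% of 254 cells had a UMI at a median depth of 3740.5. At pnd7 they were close to background. Of the 131 air pnd7 cells 5 kept the class by their own markers and 102 with Seurat integration, so no ratio between ages is given. After hyperoxia the log2 ratio between ages was -1.58 (-1.69 to -1.47) in type II-like and -0.62 (-0.74 to -0.51) in alveolar macrophage-like cells. Different clusters held most type II-like and most alveolar macrophage-like cells at the 2 ages.

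Genes that handle zinc were listed as the pathway around Mt1 and Mt2. Of 27 zinc genes 10 had enough counts in alveolar macrophage-like cells, and 0 were past 2-fold higher and 0 lower in sorted against unsorted hyperoxia cells, near the 3.98% and 13.6% of all genes, with a median log2 ratio of -0.77 against -0.28 for all genes. Mtf1, the factor that senses zinc at metal response elements, was at 20.4 against 39.1 CPM (-0.94, -1.48 to -0.36), and the zinc importer Slc39a14 at 19.1 against 24.5 (-0.37, -1.03 to 0.36). Slc39a10, another importer, was past 2-fold lower, at 6.65 against 44.6 CPM (44 and 40 counts), but under the minimum of 100 counts. The importer Slc39a1 was at 187 against 145 CPM (0.36, 0.10 to 0.64). Slc30a1, also on the zinc list, had 9 counts in the sorted and 0 in the unsorted hyperoxia cells, too few to be measured. Of 10 copper genes 7 were measured and none passed 2-fold, with a median of 0.09, and the copper chaperone Atox1 was at 603 against 442 CPM (0.45, 0.30 to 0.60).

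The Nrf2 list stood apart from these. Of its 10 genes 9 were measured, 7 were more than 2-fold higher in the sorted cells, 0 were lower and the median log2 ratio was 2.49. Over all genes of this class, 3.98% were past 2-fold higher and 13.6% lower. Hmox1, which breaks down heme, was at 7855 against 495 CPM (3.99, 3.85 to 4.12), and Slc7a11, the cystine importer, at 750 against 53.6 (3.81, 3.40 to 4.25). Srxn1, which repairs oxidised peroxiredoxin, had a ratio of 3.04, and Gclc, Gclm and Txnrd1, enzymes of glutathione synthesis and thioredoxin reduction, had ratios between 2.48 and 2.56. Gsr and Keap1 were within counting error or close to it, at -0.16 (-0.32 to 0.00) and 0.05 (-0.42 to 0.55). The ratios of Hmox1 and Slc7a11 lay near that of Mt1, at 3.83, and those of the other genes named here were lower. Mt2, at 4.68, was above all of them. What links these genes to Mt1 and Mt2 was not tested.

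**Figure D5:**
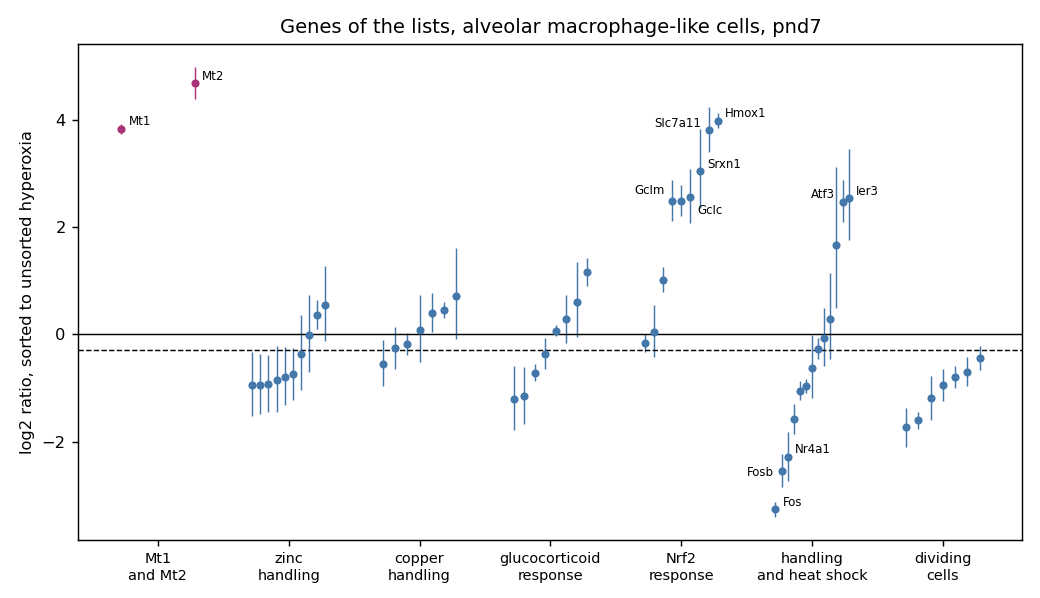
Log2 ratio of sorted to unsorted hyperoxia pnd7 alveolar macrophage-like cells for Mt1, Mt2 and the measured genes of each list, with 95% counting intervals and the genes past 2 on this scale named except Txnrd1; the dashed line is the median of all genes at -0.28. Mt1 and Mt2 lie at 3.83 and 4.68, beside Hmox1 at 3.99, while the zinc genes lie between -0.94 and 0.54.

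Genes that respond to glucocorticoids, to tissue handling and to cell division were followed because the sort adds time and steps. Of 8 measured glucocorticoid response genes 1 was past 2-fold higher, Nfkbia at 1.16, and 2 lower, Tsc22d3 at -1.15 and Per1 at -1.20, against 3.98% and 13.6% of all genes, so that with 8 genes these counts are close to the share over all genes. Of 13 measured handling and heat shock genes 3 were past 2-fold higher, Ier3, Atf3 and Jund, and 5 lower, with Fos at 106 against 1017 CPM (-3.26) and a median of -0.62. The summed level of that list was 1489 CPM in sorted and 2916 in unsorted hyperoxia cells. Of 7 dividing cell genes 3 were past 2-fold lower, against 13.6% of all genes, and their summed level was 711 against 1454 CPM. The part of these in the level of Mt1 and Mt2 was not tested.

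Between hyperoxia and air pnd7, 1 of 5 measured Nrf2 genes was past 2-fold higher in alveolar macrophage-like cells, Hmox1 at 495 against 71.0 CPM (log2 ratio 2.80, 2.46 to 3.16), and the summed level of the list was 1413 against 785 CPM. At pnd60 0 of 7 passed, with 1052 against 982 CPM. In these comparisons 0 of the 2 and 0 of the 9 measured zinc genes passed 2-fold. Over all genes of this class, 0.755% passed 2-fold in either direction at pnd7 and 0.372% at pnd60, so the counts of 0 are near those shares.

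The genes whose level over the 68 units of class and library was most like that of Mt1 and Mt2, among 9024 genes with at least 1000 counts, were Cebpa (r = 0.79), a factor of macrophages and alveolar epithelium, Cstb (0.76), an inhibitor of cathepsins, the iron carrier Trf (0.76), the protease inhibitor Spint1 (0.75), Sord (0.74), which oxidises sorbitol, Nek6 (0.73), Dapk1 (0.71), Pex11a (0.71), the ferritin chain Fth1 (0.71) and Shtn1 (0.70). The units share libraries and depth, so no p-value is given. Without the 2 sorted units the values were 0.79 for Cebpa, 0.79 for Sord and 0.62 for Fth1, and 7 of the 10 genes were also among the 10 highest. Across the 412 sorted alveolar macrophage-like cells thinned to 1000 UMIs, no gene came near the correlation of Mt1 with Mt2. The highest of 737 genes had an r of 0.31 and the lowest -0.28, the latter for the mitochondrial ribosomal RNA mt-Rnr2. The 10 highest were the feature LOC100862446, Ptma, Prdx1, Cotl1, Stmn1, Atp6v1g1, Atpif1, Cox7c, Ppia and Alas1, at 0.19 to 0.31, and such weak values in sparse counts are only a description.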

How the data were processed

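Lung cells of 5 libraries were sequenced with a droplet 3′ assay. The deposited files hold raw UMI counts per gene and cell, made by the authors with Cell Ranger on mm10 per the labels, whose processing notes also name Seurat 3.2.1. Cells with more than 700 and fewer than 8000 genes and under 5% mitochondrial counts (mt-Rnr1 and mt-Rnr2 only) were kept. Doublets were called with Scrublet but not removed. It marked 0 and 4 cells of the unsorted pnd7 libraries, too few to trust, and 15, 141 and 157 of the others. Cells were clustered with Scanpy 1.11.5 (Leiden, resolution 2) without Mt1 to Mt4 and without integration, and clusters were named from marker lists by thresholds set after the clusters were seen. Counts were summed per class and library and given as CPM with exact Poisson intervals, shares with exact Clopper-Pearson intervals, and log2 ratios with exact binomial intervals. In log2 ratios a count of 0 was replaced by 3 counts. Genes entered a comparison with at least 100 counts. With 1 library per condition there was no test and no p-value. The named genes were Mt1 and Mt2, the listed pathway genes and the 10 genes most like them. The members and lists were chosen with earlier results of these data known. Alternatives covered filters, scaling, thinning, clustering and the highest cells.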

Additional observations from a re-analysis of the deposited data

Results flagged for a closer look

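Barcodes removed by the filter also held Mt1 and Mt2, a signal outside the kept cells. Their summed level was 98.3 CPM in hyperoxia pnd7 against 88.8 in air pnd7, 2367 CPM in the sorted library, and 382 in hyperoxia pnd60 against 193 in air pnd60. Hemoglobin genes made up 84.2% of the removed counts in air pnd7, 75.4% in hyperoxia pnd7, 40.9% in the sorted library, 41.5% in air pnd60 and 11.9% in hyperoxia pnd60.

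The log2 ratio of hyperoxia to air had opposite signs at the 2 ages, and the difference was not tested. It was 0.11 at pnd7 and -0.27 at pnd60 over all cells, and 0.12 and -0.32 in type II-like cells. The values over all cells also carry the mix of cell classes, which differed between libraries. The pnd7 values did not hold throughout, since the first turned under 3 alternatives and type II-like cells were not among the classes higher past counting error with Seurat integration or by own markers.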

How the results depend on the processing

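No paired analysis was possible because there was only 1 library for every condition. Of 93 recomputed values of 11 results, 4 reversed. Only log2 ratios could be called reversed, since results that are counts of classes were called the same or moved, whichever classes they held. All values are log2 ratios of the summed Mt1 and Mt2 unless said otherwise, and the causes of the shifts were not tested. With all barcodes kept, the ratios over all cells were 5.98 (sorted against hyperoxia), 6.03 (sorted against air), 0.045 (hyperoxia against air, pnd7), -0.15 (pnd60), 0.13 (pnd60 against pnd7, air, reversed) and -0.060 (hyperoxia). In the same order, the mean of CPM per cell gave 5.77, 5.29, -0.48 (reversed), -0.37, -1.54 and -1.42, thinning to 1000 UMIs 5.85, 5.35, -0.51 (reversed), -0.38, -1.42 and -1.30, and leaving out the highest 1% of cells 5.80, 5.78, -0.019 (reversed), -0.46, -0.68 and -1.12. Median-of-ratios scaling gave 5.45 and 5.54 for the sorted library and -0.65 and -1.05 between ages, and a total without hemoglobin genes 5.40 against air. This scaling shifted all genes by -0.23 and -0.24 between ages and by 0.23 in alveolar macrophage-like cells against either unsorted library.

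In alveolar macrophage-like cells, sorted against hyperoxia was 4.15 with median-of-ratios scaling, 4.08 without the highest 1% of cells and 4.12 with Seurat integration (244 against 80 cells). Sorted against air was 4.71 with median-of-ratios scaling, 4.13 as the mean per cell, 4.21 thinned, 4.38 with Seurat integration and 4.601 by own markers. Hyperoxia against air at pnd7 was 0.20 as the mean per cell, 0.24 thinned and 0.26 with Seurat integration. Of the alternatives chosen after seeing the data, the shared dividing cluster gave 4.73, 5.11 and 0.38, and leaving out the mostly sorted cluster 4.23 and 4.83. Without the highest 1% of cells, 2 classes and not 4 were higher in hyperoxia at pnd7. Seurat integration gave 3 and own markers 6, and type II-like cells were in neither. At pnd60, 2 classes were higher with Seurat integration and 2 by own markers, with 7 and 10 lower.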
